A study of Mus musculus with 6 samples.

Results

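The mouse miRNAs mmu-miR-135a-5p, mmu-miR-135b-5p, mmu-miR-31-5p, mmu-miR-31-3p, mmu-miR-203-3p and mmu-miR-205-5p (the prefix is left out below) are microRNAs of epithelial cells that are studied in duct-like change of the pancreas and in stratified epithelia. They were taken by name from a table of 1077 mature miRNAs in mouse pancreatitis tissue, and all 6 of the 6 names were present. There were 3 control libraries from pancreas with pancreatitis in mice without raised blood triglycerides, and 3 libraries from pancreas with pancreatitis in mice whose blood triglycerides were raised, which the sample titles shorten to HTG. Pancreatitis was thus common to both groups, and no library of healthy pancreas was analysed here. Strain, age, the agents that induced either condition and the time of sampling are not stated in the labels. Whether each library is 1 animal is not stated either, and p-values measure only the spread between libraries, which may be technical.

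In pancreatitis, acinar cells, which make the digestive enzymes, can lose their enzyme genes and take on features of duct cells. This acinar-to-ductal metaplasia is reversible after injury. A miRNA pairs with messenger RNAs mainly through its seed, bases 2 to 8 from its 5′ end, and represses them. In mouse skin, miR-203 represses p63 and helps cells leave the basal layer, and miR-205 is abundant in basal cells of stratified epithelia, where with the miR-200 family it represses Zeb1 and Zeb2. MiR-31 is raised in proliferating and injured epithelia of skin and intestine. MiR-135a and miR-135b repress APC, a brake on Wnt signalling, in human colorectal cells, and miR-135b is raised in human pancreatic ductal adenocarcinoma.

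The mature sequences below, from RefSeq on GRCm38.p6, are shown because they set which counts can be told apart; a sequence was matched for 5 of the 6 miRNAs, and miR-135b-5p is named only. Capitals mark the seed, and the last 2 lines are the opposite arms of the 2 hairpins that both give miR-135a-5p.
miR-203-3p: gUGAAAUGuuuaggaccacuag
miR-205-5p: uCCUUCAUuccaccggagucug
miR-31-5p: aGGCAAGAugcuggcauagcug
miR-31-3p: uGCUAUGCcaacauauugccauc
miR-135a-5p: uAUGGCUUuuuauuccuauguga
miR-135a-1-3p: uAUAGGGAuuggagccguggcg
miR-135a-2-3p: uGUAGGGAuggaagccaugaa

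The 5 matched members have 5 different seeds, and no other miRNA with a sequence in the RefSeq table had any of these seeds. Among the 901 miRNAs of the count table with a RefSeq sequence, the nearest to any of the 5 was 7 edits away, a distance found for miR-31-5p and for miR-205-5p. MiR-135b-5p, a paralog of miR-135a-5p, had no sequence there, so its seed and its distance from miR-135a-5p were not compared. A unique seed or the lack of a near relative is therefore not shown for miR-135a-5p. No other entry of the table had the same counts as any of the 6 members. The same mature miR-135a-5p is made from Mir135a-1 and Mir135a-2, so its count cannot be divided between them.

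On GRCm38, with GENCODE M21 gene models, Mir203 lies at chr12:112130880-112130955 (+ strand) and overlaps no longer gene. Mir205 lies at chr1:193507463-193507530 (-) in an exon of the lincRNA 4631405K08Rik. Mir31 lies at chr4:88910557-88910662 (-) in an exon of the lincRNA AL805899.1. Mir135a-1 lies at chr9:106154124-106154213 (+) in an intron of the antisense RNA D030055H07Rik and opposite an exon of Glyctk, and Mir135a-2 at chr10:92072086-92072185 (-) in an intron of the lincRNA Rmst. Mir135b lies at chr1:132198088-132198184 (+) in an intron of Lemd1.

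The libraries held between 6514498 and 19773579 counts. Levels are in CPM, counts scaled to library size and to the trimmed-mean (TMM) factor of the library, which needs no length term because mature miRNAs are close to the same length. A count of 0 allows up to 0.152 to 0.461 CPM before that factor, taking 3 counts as the limit. Intervals of counts and shares cover counting error only, as PCR copies of 1 molecule are counted several times. The libraries numbered 1 of both groups stood apart in their lymphocyte miRNAs, but not in the summed level of the myeloid miRNAs given below. MiR-142a-3p is in both of these lists, and it was higher in both libraries numbered 1 than in control 2. Lymphocyte and myeloid miRNAs are thus not fully separate here. The summed level of 5 lymphocyte miRNAs was 2720 CPM in control 1 and 5123 CPM in HTG 1, and between 372 and 1015 CPM in the other 4 libraries. The acinar marker miR-148a-3p was abundant in both groups, averaging 362307 CPM in the control and 421897 CPM in the HTG libraries. In whole tissue, fewer cells of a type and less RNA per cell cannot be told apart.

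Between HTG and control, edgeR's quasi-likelihood test called 0 of 488 tested miRNAs (0%) at an adjusted p of 0.05, and 0 of the 5 members that passed its filter on low counts; at an unadjusted p of 0.05 there were 12 miRNAs (2.46%). DESeq2 called 0, with 19 at an unadjusted p of 0.05, and limma-voom called 0, with 17. The other member, miR-135b-5p, did not pass the filter. The members were chosen by name with results of this contrast known, the group levels of miR-135a-5p among them, so the fold changes below describe these libraries. Each fold change is HTG over control on the log2 scale, with its standard error (SE) and 95% confidence interval.

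MiR-203-3p was the most abundant of the 6, ranking from 69 to 81 within the libraries. Controls 1, 2 and 3 held 699, 803 and 800 CPM, and HTG 1, 2 and 3 held 567, 718 and 860 CPM. The groups overlapped fully, with both the lowest and the highest value in the HTG group. The means were 768 ± 59.4 and 715 ± 146.6 CPM (SD, n = 3 each), and the fitted log2 fold change was -0.10 ± 0.19 (SE; interval -0.55 to 0.34). Its sign turned without HTG 1, to 0.076. That library was also the lowest of the 6 in the summed level of 8 columnar and duct miRNAs, at 40129 CPM against 48387 to 63058 CPM; the part of this in the value of miR-203-3p was not tested. The opposite arm, miR-203-5p, held between 8 and 49 counts per library.

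MiR-205-5p was rarer, ranking from 253 to 328. It stood at 10.3, 15.9 and 13.1 CPM in the control libraries and at 9.17, 9.68 and 10.8 CPM in the HTG libraries. The groups overlapped, with control 1 below HTG 3, and controls 2 and 3 were the highest. The means were 13.1 ± 2.79 and 9.87 ± 0.809 CPM (SD, n = 3 each), and the fitted log2 fold change was -0.41 ± 0.26 (SE; interval -1.02 to 0.20), and edgeR did not call it (adjusted p = 0.996). With 71 to 287 counts in a library, counting error alone was wide: control 1 had a Poisson interval of 8.33 to 12.7 CPM.

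MiR-31-5p is the main arm of the miR-31 hairpin. Its level in controls 1, 2 and 3 was 127, 171 and 160 CPM, and in the HTG libraries 156, 155 and 157 CPM. The 3 HTG values lay between the lowest and the highest control. The means were 153 ± 22.9 and 156 ± 0.938 CPM (SD, n = 3 each), and the fitted log2 fold change was 0.03 ± 0.17 (SE; interval -0.36 to 0.42), whose sign turned with scaling by library size (-0.014). Over all 6 libraries its coefficient of variation was 9.46%, lower than in all but 42 of the 488 tested miRNAs, for which the median was 23.4%. This narrow spread depends on the TMM factor: in the deposited TPM the HTG libraries were at 189, 139 and 144, the means were 159 ± 28.6 and 157 ± 27.6 TPM (SD, n = 3 each), and the coefficient of variation was 15.9%, with 85 of the 488 lower and a median of 28.2%.

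MiR-31-3p, the minor arm of the same hairpin, was near the counting limit, with 6, 5 and 66 counts in control 1, 2 and 3 and 17, 28 and 10 counts in HTG 1, 2 and 3. These were 0.682, 0.577 and 3.02 CPM for the controls, against 2.19, 1.73 and 1.08 CPM for HTG. Control 3 was the highest library and controls 1 and 2 the lowest. The log2 fold change was 0.13 ± 0.68 (SE; interval -1.46 to 1.72). It was 1.37 without control 3 (adjusted p = 0.998 in edgeR; 0.907 to 0.9999 over all alternatives) and -0.21 without control 2.

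**Figure D1:**
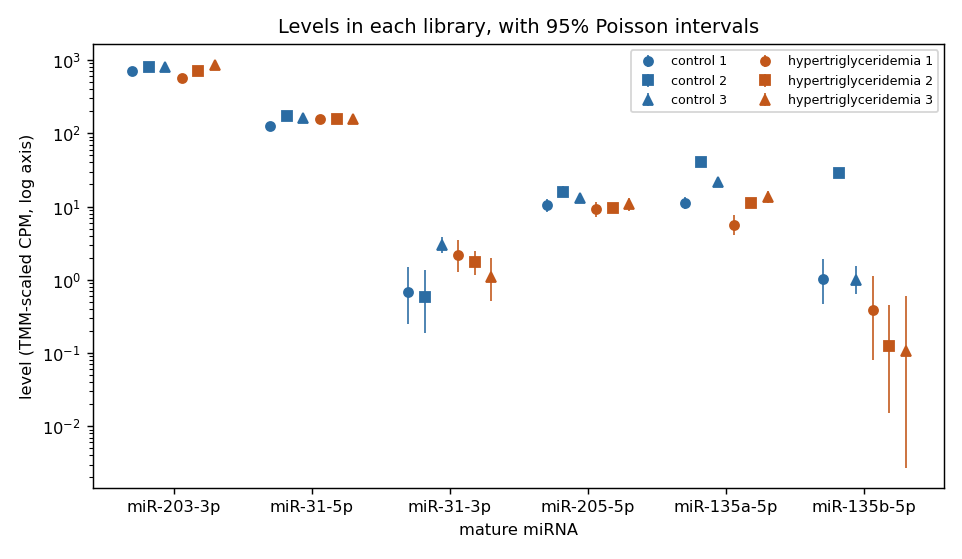
Level of the 6 miRNAs (TMM-scaled CPM, log axis) in each library, with 95% Poisson intervals; blue marks control, orange HTG, and the marker shape gives the library number. MiR-135b-5p reached 28.8 CPM in control 2 and stayed at 1.02 CPM or less in the other 5 libraries, while miR-31-5p lay between 127 and 171 CPM in all 6.

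MiR-135a-5p had the fitted log2 fold change farthest from 0 among the 5 tested members. Controls 1, 2 and 3 were at 11.3, 40.1 and 21.8 CPM, and HTG 1, 2 and 3 at 5.68, 11.1 and 13.5 CPM. Controls 2 and 3 were the highest libraries, HTG 1 was the lowest, and control 1 lay within the HTG range. The log2 fold change was -1.26 ± 0.51 (SE; interval -2.45 to -0.08), outside the 5th to 95th percentile of all tested miRNAs (-0.53 to 0.67), with an adjusted p of 0.996 in edgeR. Without control 2 it was -0.71. Its coefficient of variation over the 6 libraries was 71.7%, and 461 of the 488 tested miRNAs had a lower one.

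The opposite arms tell the 2 miR-135a hairpins apart, but were close to absent. MiR-135a-1-3p had 1, 2 and 15 counts in the control libraries and 0, 0 and 1 in the HTG libraries. MiR-135a-2-3p had 4, 1 and 6 counts in control and 0, 1 and 0 in HTG. The pooled counts were thus 18 against 1 and 11 against 1. As scaled ratios of control over HTG these were 15.2 (95% counting interval 2.40 to 634) and 9.30 (1.35 to 400.2). Both hairpins thus had reads, more of them in control, as for the shared miR-135a-5p, but 15 of the 18 and 6 of the 11 control counts came from control 3, the deepest library.

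MiR-135b-5p set a single control library apart. It had 9, 250 and 22 counts in control 1, 2 and 3, and 3, 2 and 1 counts in HTG 1, 2 and 3. In level this was 1.02, 28.8 and 1.01 CPM against 0.387, 0.123 and 0.108 CPM. All 3 controls were above all 3 HTG libraries, control 2 stood 28.2-fold above the next library, and it alone held 87.1% of all 287 counts. Without a filter on low counts, the groups did not overlap for 68 of 1077 miRNAs (6.31%), and they were lower in HTG for 32 (2.97%). The 3 HTG counts lay at or under the 3-count limit. Pooled over libraries, 281 counts stood against 6, a scaled ratio of control over HTG of 39.6 (95% counting interval 18.0 to 108.8). Without control 2, 31 counts stood against 6, and the ratio was 5.60 (2.30 to 16.4).

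This miRNA missed the filter by a small margin. It had to reach 1.04 CPM (before the TMM factor) in 3 libraries and did so in 2, both of them controls, so its presence in a test depends on the group where it was high. With the filter removed, edgeR called 1 of 1077 miRNAs (0.0929%), and this was miR-135b-5p, with a log2 fold change of -5.67 ± 0.996 (SE; interval -7.71 to -3.63; adjusted p = 0.00463). The call ended without control 2, where the value was -2.33 (adjusted p = 0.993). It was also absent from edgeR with a lower minimum count of 5, at -5.65 ± 1.64 (adjusted p = 0.998), and from limma-voom without a filter, at -3.58 ± 1.73 (adjusted p = 0.989). DESeq2 without a filter gave it no p, as that tool does for a count outlier. The fits with a minimum count of 5, and those without a filter that used limma-voom, DESeq2 or 1 library fewer, were chosen after the data were seen. Over the alternatives that tested it, its adjusted p ran from 3.33e-22 to 0.9999. The fits also differed in how far the spread of a miRNA was drawn to that of all others: the prior degrees of freedom in edgeR were 3.42 with the filter and 23.8 without it.

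**Figure D2:**
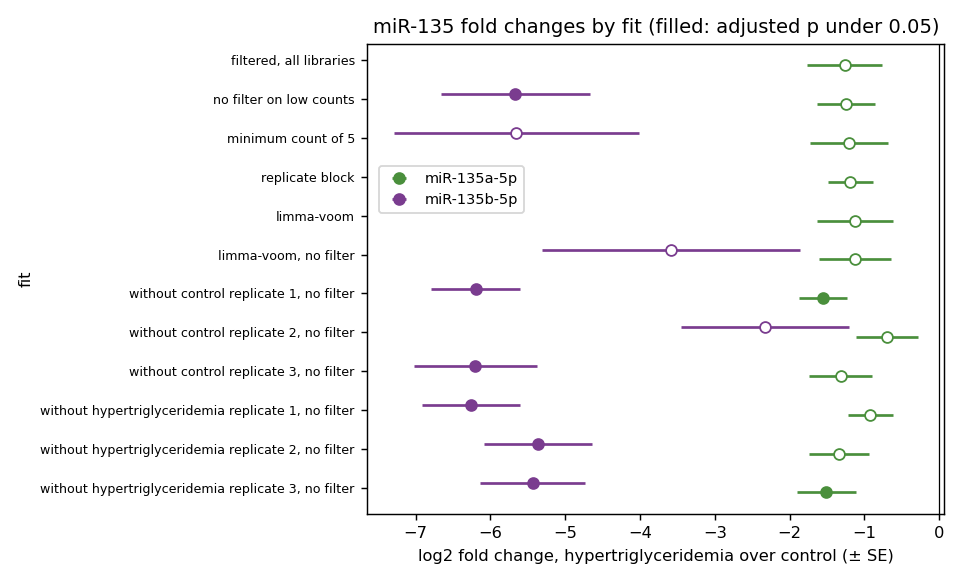
Fitted log2 fold change (HTG over control, ± SE) of miR-135a-5p and miR-135b-5p in several fits; a filled point had an adjusted p under 0.05, and miR-135b-5p has no point where the filter removed it. Without control 2 the value of miR-135b-5p moved from -5.67 to -2.33, and that of miR-135a-5p stayed below 0 in every fit shown.

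Control 2 differed from the other libraries in more than miR-135. Of 566 miRNAs that reached 30 counts over the 6 libraries, miR-135b-5p had the largest ratio of control 2 over the next library. It was followed by both arms of miR-147, which inflammatory signals induce in macrophages: miR-147-3p was at 2.65 CPM in control 2 and at 0.594 CPM or less elsewhere, and miR-147-5p at 5.07 CPM and at 1.29 CPM or less elsewhere. MiR-129b-5p, which is not among the myeloid markers, came 4 with a ratio of 2.73 and 31 counts in all. The neutrophil and macrophage miRNA miR-223-3p came 5 in this order, at 3510 CPM in control 2 against 663 to 1695 CPM. MiR-3068-5p and miR-6546-5p, also not myeloid markers, came 6 and 7. MiR-135a-5p came 8, with a ratio of 1.84. This order was drawn up after the values were seen. The summed level of the 3 myeloid miRNAs fixed as markers was 3913 CPM in control 2 and 892 to 1979 CPM in the other libraries, with no marker at 0. MiR-223-3p made up most of this sum, and the marker miR-142a-3p was not highest in control 2, at 388 CPM against 566 CPM in control 1 and 978 CPM in HTG 1; the part of myeloid cells in the miR-135 levels was not tested.

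MiR-135a and miR-135b are paralogs, and how reads matching more than 1 miRNA were assigned is not stated, so their counts may not be fully separate. The share of miR-135b-5p in the counts of miR-135a-5p plus miR-135b-5p does not depend on scaling. It was 8.33%, 41.8% and 4.40% in control 1, 2 and 3, and 6.38%, 1.10% and 0.787% in HTG 1, 2 and 3. Control 2, with an exact binomial interval of 37.8% to 45.9%, was above all others, and control 3 lay within the HTG range. The means were 18.2% ± 20.6 and 2.76% ± 3.14 (SD, n = 3 each), a difference of -15.4 percentage points (exact two-sided permutation p = 0.2, where 0.1 is the smallest possible), and -3.61 points without control 2.

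The share of miR-31-3p among the counts of both miR-31 arms was 0.534%, 0.336% and 1.85% in control and 1.39%, 1.10% and 0.682% in HTG. The 3 HTG libraries again lay between the controls. The means were 0.905% ± 0.820 and 1.06% ± 0.355 (SD, n = 3 each), and an exact permutation test gave a two-sided p of 0.8. Within the controls the exact intervals of control 2 (0.109% to 0.783%) and control 3 (1.43% to 2.34%) did not overlap; these intervals leave out PCR copies and other differences between libraries, and the pair was chosen after the values were seen.

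**Figure D3:**
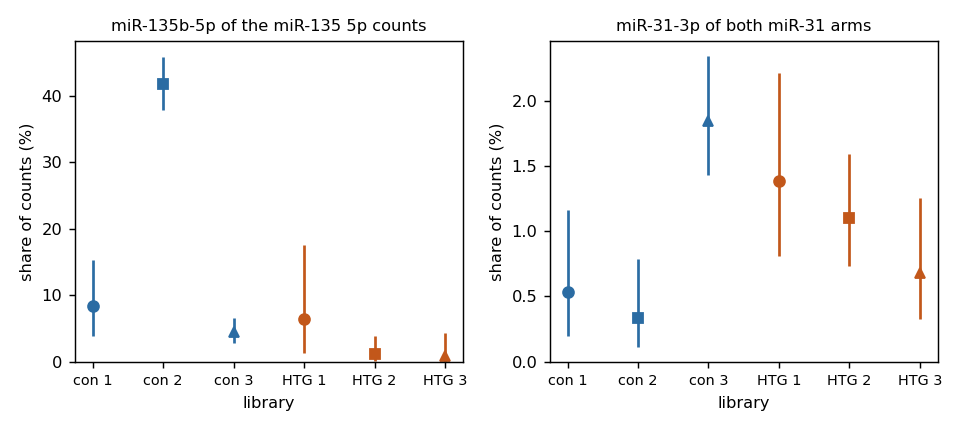
Left, percent of the miR-135a-5p plus miR-135b-5p counts that were miR-135b-5p; right, percent of the counts of both miR-31 arms that were miR-31-3p, per library (con, control; HTG, HTG) with exact 95% binomial intervals. Control 2 reached 41.8% on the left, and control 3 was highest on the right at 1.85%.

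**Figure D4:**
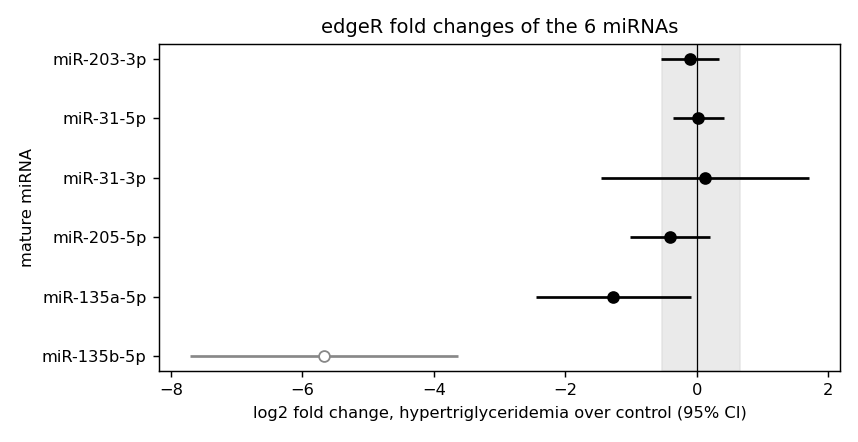
Log2 fold change of HTG over control with its 95% confidence interval in edgeR; black points are the 5 tested miRNAs, the open grey point is miR-135b-5p from the fit without a filter, and the grey band spans the 5th to 95th percentile of the 488 tested miRNAs (-0.53 to 0.67). The intervals of miR-203-3p, miR-31-5p, miR-31-3p and miR-205-5p include 0.

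With all 6 libraries the groups overlapped for each of the 5 tested members, while they did not overlap for 39 of all 488 miRNAs (7.99%). Without control 1, 3 of 6 tested members (miR-135a-5p, miR-135b-5p and miR-205-5p) were lower in HTG with no overlap, where 44 of 505 miRNAs (8.71%) did so, and the same 3 without HTG 3, where 38 of 503 (7.55%) did. Without HTG 3 the gap of miR-135a-5p was close to a tie, between control 1 (11.3 CPM, Poisson interval 9.14 to 13.7) and HTG 2 (11.1 CPM, 9.53 to 12.8). It was absent from the same fit without a filter. The same 3 also did so without both libraries numbered 1, where 100 of 509 miRNAs (19.6%) did. With 2 libraries in a group such a gap is easier to reach. MiR-135b-5p passed the filter in these fits only through control libraries, as its HTG counts were 3, 2 and 1. Its entry into them thus rested on the group where it was high, so its gap cannot be set against the share of all miRNAs. The gap itself was also present without a filter and with all 6 libraries. HTG 1 was the lowest library for miR-135a-5p, miR-203-3p and miR-205-5p. For miR-31-3p only control 3 was higher.

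The members were compared by the root-mean-square difference of mean-centred log2 levels over the 6 libraries. This measure grows with the size of the changes, so miRNAs that vary little score as alike whatever their shape. It was 0.20 between miR-31-5p and miR-203-3p and 0.21 between miR-203-3p and miR-205-5p. It was 1.35 between miR-135a-5p and miR-135b-5p, and 0.60 between the arms of miR-31. Between miR-135a-5p and miR-205-5p it was 0.59, although both ordered the 6 libraries the same way, from control 2 down to HTG 1. Among tested non-members, the profile nearest to miR-203-3p was that of miR-30a-5p (0.074), followed by miR-183-5p (0.080), with a median of 0.36 over all non-members. Nearest to miR-205-5p were miR-192-5p (0.099) and miR-10a-5p (0.13; median 0.39). For miR-31-5p these were miR-210-3p (0.070) and miR-301a-3p (0.087; median 0.31), and for miR-31-3p miR-350-5p (0.30) and miR-212-3p (0.30; median 0.69). For miR-135a-5p, which varied more, miR-212-5p (0.44) and miR-744-3p (0.45) came nearest (median 0.90).

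Other miRNAs of pancreatic neoplasia and of acinar identity were set beside the members. Of 10 miRNAs known to be raised in pancreatic neoplasia, 9 were tested and 0 called, 5 with a fitted value above 0 and 4 below, with a median of 0.04 against -0.01 over all 488. The most abundant were miR-21a-5p (-0.15 ± 0.18, SE), miR-10b-5p (-0.10 ± 0.21) and miR-221-3p (-0.33 ± 0.23). Of 6 miRNAs known to be lowered there, all tested and 0 called, 6 had values above 0 with a median of 0.09; the most abundant were the acinar miR-148a-3p (0.22 ± 0.23) and miR-217-5p (0.13 ± 0.32) and the endocrine miR-375-3p (0.05 ± 0.16). The 7 acinar miRNAs had a median of 0.13 and the 8 columnar and duct miRNAs one of 0.04, with 0 called in either, among the latter miR-200b-3p (-0.01 ± 0.19), miR-802-5p (0.28 ± 0.20) and miR-200a-3p (0.20 ± 0.20). The medians were 0.40 for 5 lymphocyte, -0.45 for 3 myeloid, -0.38 for 6 mesenchymal, 0.44 for 4 endocrine and 0.39 for 5 neuronal miRNAs, with 0 called in each. The lymphocyte median rested on HTG 1, the library with the highest lymphocyte sum, while HTG 2 and 3 had the lowest sums: it was -1.90 without HTG 1, -0.77 without both libraries numbered 1, -0.03 without control 3 and -0.20 with the library number as a block. The medians of the miRNAs raised in neoplasia (-0.15 to 0.15 over all alternatives) and of the columnar and duct miRNAs (-0.08 to 0.27) also changed sign between alternatives. Of the 6 miRNAs lowered in neoplasia, 4 were above 0 with scaling by library size only (median 0.01), and 3 without control 2 (median 0.05). That list shares miR-148a-3p, miR-217-5p and other miRNAs with the acinar list, so these lists are not separate observations.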

How the data were processed

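Small RNA of mouse pancreatitis tissue was sequenced in 6 libraries, with Trizol extraction and the NEXTflex Small RNA-Seq Kit v3 per the labels' protocols. The submitters' processing notes name Bowtie 1.1.1 and GRCm38. Trimming, the miRNA annotation release and how multiply matching reads were counted are not given in the sources used. The authors deposited whole-number read counts per mature miRNA and, per the file headers, TPM values, which were the counts scaled to a total 1.70% to 1.95% below the sum of counts, with no length term. The main test was the two-sided quasi-likelihood test of edgeR 4.0.16 (R 4.3.3) on the counts, with TMM scaling, the filterByExpr filter (minimum count 10, minimum total 15) and Benjamini-Hochberg adjustment over all tested miRNAs, after a check on simulated data. Alternatives were DESeq2 1.42.0, voom of limma 3.58.1, limma on log2(TPM + 1) and log2(TPM + 0.1), other scalings, no filter, leaving out libraries, and the library number as a block. Deviations from the group means correlated at 0.48, 0.19 and 0.28 between same-numbered libraries, all above 0.1. On that ground alone the library number was used as a block in alternative fits, since the labels do not say what it marks. The main test and the permutation tests took the libraries as unpaired. The numbering separates the libraries numbered 1 best: control 3 with HTG 2 (0.25) and control 2 with HTG 3 (0.23) correlated above the same-numbered pair 2. The members and lists were chosen with earlier results of these data known. Named miRNAs were the members, their opposite arms, the 2 nearest profiles per tested member and up to 3 of the most abundant per list.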

Additional observations from a re-analysis of the deposited data

How the results depend on the processing

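The count of called miRNAs was 0 with all 6 libraries and the filter, and remained 0 with the other scalings, DESeq2, limma-voom, limma on TPM and the replicate block, where 27 in place of 12 had an unadjusted p under 0.05. It was 1 without a filter, 4 without both libraries numbered 1 and 0 to 2 with 1 library left out under the filter. Members with no overlap numbered 0, 1 without a filter, 3 without both libraries numbered 1 (where 19.6% of all miRNAs were lower with no overlap), and 1 to 3 with 1 library left out. Without control 2, HTG 1 or HTG 2 the only such member was miR-135b-5p, lower in HTG. So were 24 of 510, 67 of 500 and 32 of 505 miRNAs in those fits, which miR-135b-5p entered only through control libraries. Without control 3 it was miR-31-3p, higher in HTG, as were 34 of 502 miRNAs. The fits with a minimum count of 5, and those without a filter that also left out a library or used the block, DESeq2 or limma-voom, were chosen after seeing the data. Without a filter, 1 to 25 miRNAs were called with 1 library left out (17 without control 1), 11 with the replicate block and 0 with DESeq2 and limma-voom; 0 were called with a minimum count of 5. Without a filter the block gave miR-135b-5p -5.25 (adjusted p = 2.75e-12 in edgeR), and gave miR-135a-5p -1.17 (adjusted p = 0.00640 in edgeR), which the filtered block fit did not call (-1.19; adjusted p = 0.559). The estimated prior degrees of freedom were infinite in the unfiltered fits that left out a library or used the block, except that without control 3 (31.3), so the spread of a single miRNA had no weight. With the filter the block changed no call. MiR-135a-5p was also called without a filter when control 1 (-1.56) or HTG 3 (-1.51) was left out; the cause was not tested. Over all alternatives it ranged from -1.56 to -0.69, miR-135b-5p from -6.78 to -2.33 and miR-205-5p from -0.51 to -0.24, each below 0. Signs turned for miR-31-5p with scaling by library size (-0.014), on log2(TPM + 1) (-0.0097), on log2(TPM + 0.1) (-0.0097) and with 1 library left out (-0.050 to 0.12, filtered or not; -0.025 to 0.11 filtered). They turned for miR-31-3p without both libraries numbered 1 (-0.32) or with 1 left out (-0.21 to 1.37 filtered, and -0.13 without control 1, -0.20 without control 2 and -0.0082 without HTG 1 unfiltered), and for miR-203-3p without both libraries numbered 1 (0.070) or with 1 left out (-0.26 to 0.11; filtered -0.26 to 0.076). The difference in the miR-31-3p share, 0.152 points, ran from -0.132 to 0.622 points with 1 library left out and was -0.198 points without both libraries numbered 1. That in the miR-135b-5p share ran from -22.3 to -3.61 points. Low counts limit how closely the level of miR-135b-5p in HTG is known, as 6 were read in all.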

Other observations

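Excess of a single library over all others was not limited to control 2. Of the 566 miRNAs that reached 30 counts over the 6 libraries, 14 stood at least 2-fold above the next library in HTG 1, and between 0 and 6 did so in each of the other libraries. The ratio of 28.2 for miR-135b-5p was the largest in these 6 libraries, and the next largest was 7.12, for miR-196a-5p of the Hox clusters in HTG 1. The others at 4-fold or more were miR-147-3p in control 2 (4.47) and miR-5620-5p in control 3 (4.82). These miRNAs were chosen after their values were seen.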
